A study of Mus musculus with 2 samples.

Results

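Pannexin and connexin genes encode the subunits of large-pore membrane channels, and 8 of them (Panx1, Panx2, Panx3, Gja1, Gja4, Gjb2, Gjb6 and Gjc1) were followed through the cartilage zones of the developing long bone. They were taken by name from the annotation of the array, using all probe sets that name 1 of these genes alone, and they make up 8 of the 18193 named genes measured and 16 probe sets. The donors in both groups were wild-type C57BL/6J mouse embryos (E17.5), and the labels name no transgene, deletion or treatment. One Affymetrix array was hybridised with RNA from tissue enriched in round chondrocytes, and a second with RNA from tissue enriched in both columnar and hypertrophic chondrocytes, so these last cell types are not separated. Each array received a mixture of RNA from 3 portions of cartilage plate, and the number of animals behind them is not given in the sources used here. There is 1 array per group, so replicate errors cannot be given and no difference was tested.

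Connexins assemble as hexamers in the cell membrane, and the hexamers of adjoining cells dock into gap junctions that pass ions and small metabolites from cell to cell. Pannexins share the overall fold of connexins without clear sequence similarity, carry sugars on their outer face that hinder docking, and work mostly as single-membrane channels that release ATP. Panx3 is known for its place in skeletal tissue, where its protein has been described as an ATP release channel, a Ca2+ channel of the endoplasmic reticulum and a regulator of chondrocyte and osteoblast differentiation. Gja1 encodes connexin 43, the main gap junction protein of skeletal cells, and Gjc1 encodes connexin 45.

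Values are MAS5 signals, which are linear intensities scaled so that both arrays have the same trimmed mean. A signal of 100.5, the 95th percentile of 87 probe sets for odorant, pheromone and taste receptor genes that cartilage should not express, was used as a floor. A gene under the floor on both arrays has no difference here, and a gene under it on 1 array has a bound, written as "at least". A bound smaller than 2-fold was counted as not past 2-fold, though the step itself may be larger. Differences are log2 values, columnar/hypertrophic array minus round array. The SD of the log2 differences among probe sets of the same gene was 0.37 over 4825 genes, a technical spread within the array and not a spread between animals. Median signals were 128 (round) and 105 (columnar/hypertrophic). Of 12 general chondrocyte markers, 12 lay above the floor on both arrays and within 2-fold. Of the hypertrophic and prehypertrophic markers 9 of 11 measured exceeded 2-fold toward the columnar/hypertrophic array, with Mmp13, a late hypertrophic marker, under the floor on both. Of the round and resting markers 9 of 10 exceeded 2-fold toward the round array.

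Of the 8 genes, Panx3 had a large difference, Gja1 and Gjc1 had signals of similar size on both arrays, and the other 5 (Panx1, Panx2, Gja4, Gjb2 and Gjb6) were under the floor on both. By its brightest probe set, Panx3 was higher by at least 161-fold in the columnar/hypertrophic tissue. Gja1 was 1.23-fold higher and Gjc1 1.33-fold lower, both by about the technical spread of a probe set. At the 2-fold limit 1 of the 3 measured genes was higher and 0 were lower, where 4.31% of the 11703 genes above the floor on at least 1 array were higher by that much and 6.37% lower. These are 504 higher and 745 lower genes, and with equal medians on both arrays the split was 943 and 414. With 3 measured genes these shares cannot be set against each other closely.

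**Figure D1:**
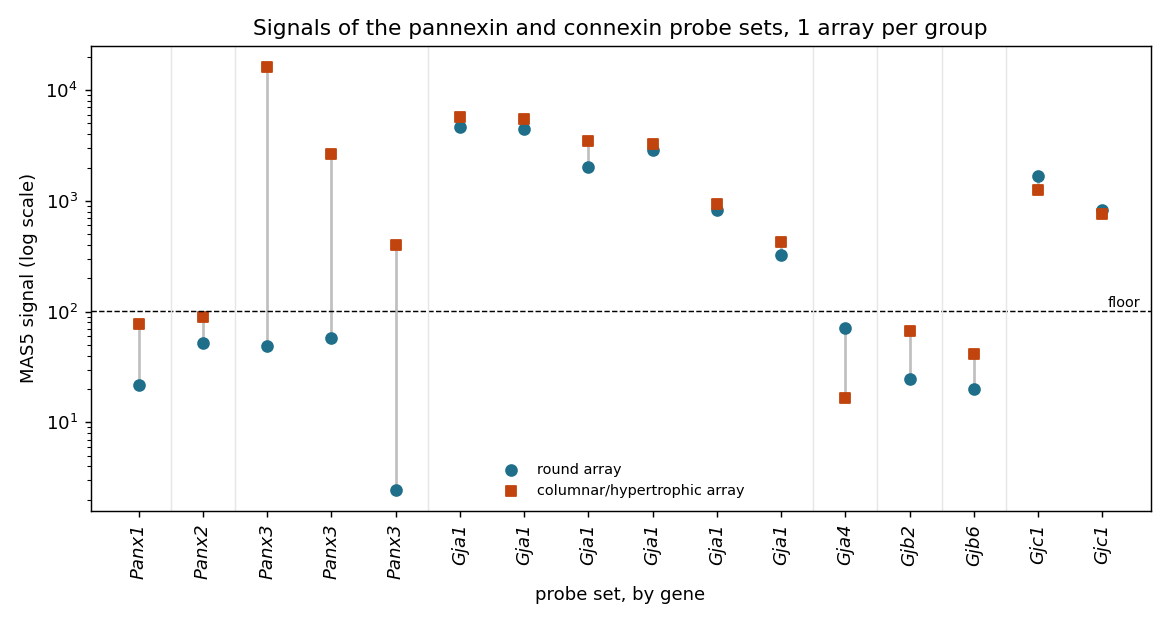
The 16 probe sets of the 8 genes (horizontal, by gene) with their MAS5 signals (vertical, log scale): circles stand for the single round array, squares for the single columnar/hypertrophic array, and a dashed line for the floor of 100.5. The 3 Panx3 probe sets go from under the floor to between 400.3 and 16143, the 6 Gja1 and 2 Gjc1 probe sets lie above it on both arrays, and the remaining 5 lie under it on both.

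Panx3 is represented by 3 probe sets, and all of them went from under the floor to above it. Probe set 1456073_s_at read 49.4 in round and 16143 in columnar/hypertrophic tissue. Probe set 1432860_at read 57.9 and 2671, a step of at least 26.6-fold. Probe set 1454387_at read 2.46 and 400.3, a step of at least 3.98-fold. The 3 bounds differ because each is the columnar/hypertrophic signal over the same floor, and none of them is an estimate of the fold itself. The brightest probe set carries the suffix that Affymetrix gives to probe sets matching several transcripts, and without it the bound was 4.73 on the log2 scale in place of 7.33. In bulk tissue, fewer cells with the transcript and less transcript per cell cannot be told apart.

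Such uniform behaviour was uncommon on these arrays. Of 4315 genes with at least 3 probe sets, 4 had every probe set under the floor on the round array and at least 2-fold higher on the other. These were Panx3, Dusp9, which encodes a MAP kinase phosphatase, Rhbdl2, which encodes a rhomboid protease of the cell membrane, and St8sia6, which encodes a sialyltransferase. This count was made, and these genes were named, after the values had been seen. In all, 401 genes passed from under the floor on the round array to above it on the other, and for 97 of them the bound was at least 2-fold.

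The genes with signals closest to those of the brightest Panx3 probe set were listed by distance between the floored log2 signals over the 2 arrays, and the first was Col10a1, the collagen gene of hypertrophic cartilage, at a distance of 0.58. Col10a1 had signals of 24.2 and 10818. The next was Smpd3, encoding a neutral sphingomyelinase required for skeletal mineralisation, at 2.11, with signals of 424 and 12325. Il17b, a secreted cytokine gene, followed at 2.31, with 12.3 and 3261. Ccdc80, a gene of a secreted matrix protein, stood at a distance of 2.31 as well, with signals of 324 and 5407. Prkg2, encoding the cGMP-dependent kinase of the growth plate, lay at 2.35, with 319.9 and 5124. Panx3, Col10a1 and Il17b were thus under the floor on the round array, whereas Smpd3, Ccdc80 and Prkg2 were above it. The distances set signals of different probe sets against each other, and that to Col10a1 comes from the columnar/hypertrophic array alone, since both genes were set to the floor on the other. With probe set 1432860_at in place of the brightest, 1 of the 5 genes (Il17b) was again among the nearest 5, and with 1454387_at 0 were, a comparison added after the values were seen. The list therefore describes 1 probe set and not Panx3 in general.

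**Figure D2:**
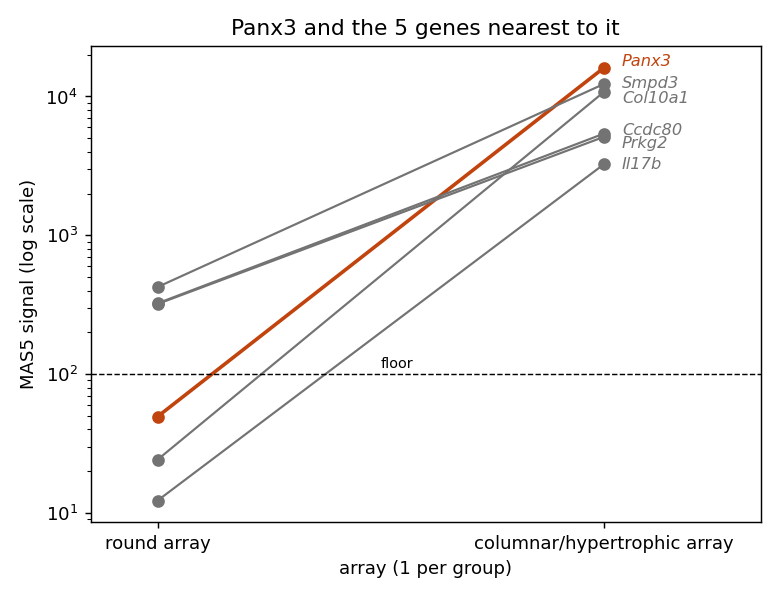
MAS5 signal (vertical, log scale) of Panx3 and the 5 genes nearest to it, each by its brightest probe set, on the round array and the columnar/hypertrophic array (1 array each), with lines joining the signals of 1 gene and the floor of 100.5 dashed. Panx3 goes from 49.4 to 16143 and Col10a1 from 24.2 to 10818, while Smpd3, Ccdc80 and Prkg2 start above the floor.

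The genes beside Panx3 had far smaller differences. On chromosome 9, the nearest genes with a probe set were Tbrg1 on one side and Vwa5a on the other, by the order of genes in RefSeq GRCm38.p6. Tbrg1, named for its induction by TGF-β, had signals of 6674 and 11025, a difference of 0.72 (2.01-fold with equal medians). Vwa5a had signals of 962 and 665, a difference of -0.53. Panx1 lies on the same chromosome, apart from Panx3, and was under the floor with both of its own neighbours, Izumo1r and Hephl1.

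The other pannexins gave no measured difference. Panx1, the broadly expressed ATP release channel that caspases can open, had a signal of 21.7 in round and 77.2 in columnar/hypertrophic tissue. Panx2, known mainly from the nervous system, had signals of 52.1 and 89.95, and with the floor at the 90th percentile it had a bound of 0.13 on the log2 scale. Each rests on a single probe set, and both signals of each were under the floor, so Panx3 was the 1 pannexin of 3 with a signal above background on either array. A signal under the floor gives no proof that a transcript was absent.

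Markers of bone cells were measured beside Panx3 because osteoblasts also use this gene. Of 8 osteoblast markers 5 were measured, 1 at least 2-fold higher in the columnar/hypertrophic tissue and 1 lower. The higher was Sp7, which encodes the transcription factor osterix and also marks hypertrophic cells, with signals of 170.3 and 1939.6, an 11.4-fold step. The late markers Dmp1, Mepe and Phex were under the floor on both arrays, with 70.7 as the highest of their signals. Ifitm5, an osteoblast membrane protein gene, lay above the floor on both, with signals of 159 and 238. Ibsp, encoding bone sialoprotein, had 0.94 and 124, the second just above the floor. Summed over the list the signal was 30294 in round and 18771 in columnar/hypertrophic tissue, of which Col1a2, a collagen gene that fibroblasts share, gave 28235 and 15672. Without Col1a1 and Col1a2 the sum was 388 and 2402, and without Sp7 as well 217 and 463, sums that were chosen after the values were seen. No marker was listed at 0. The part of bone cells in the Panx3 difference was not tested.

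Among the connexins, Gja1 lay above the floor on both arrays with all 6 of its probe sets. Probe set 1437992_x_at read 4605 in round and 5686 in columnar/hypertrophic tissue. Probe set 1415800_at had signals of 4443 and 5471, and probe set 1438945_x_at had signals of 2854 and 3269.8. Each was slightly higher on the columnar/hypertrophic array. Probe set 1438650_x_at went from 2004 to 3482, the widest step of the 6 at 1.74-fold. The dimmest, 1438973_x_at and 1415801_at, went from 328 to 427 and from 832 to 943. All 6 differences were thus above 0, between 0.18 and 0.80 with a median of 0.30 and an SD of 0.23 among them. The 4 with an x in the suffix can also match other transcripts. The 6 read the same gene on the same 2 arrays and are no replicates of a condition. Of 85 genes with at least 6 probe sets, all above the floor on both arrays, 8 had every difference above 0 and 11 every difference below 0.

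The size of the Gja1 difference was ordinary. Of the 10235 genes measured on both arrays, 53.3% had a difference at least as large in either direction, and the median absolute difference was 0.33. Gja1 was also higher under the other scalings, by 0.58 with equal medians (which put the median of all genes measured on both arrays at 0.25), 0.16 after lowess centring and 0.20 after quantile normalization. The 5 genes with the nearest pair of signals were Ugp2, Ddb1, Psma1, Copg1 and Capza1, at distances of 0.014 to 0.044. They encode the enzyme that makes UDP-glucose, a subunit of a ubiquitin ligase, a proteasome subunit, a coatomer subunit and an actin capping protein. The neighbours of Gja1 on chromosome 10 were Tbc1d32, which was 2.37-fold lower (453 to 191; -0.97 with equal medians, within 2-fold), and Hsf2, a heat shock factor gene, which was close to the floor (102 and 75.5).

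**Figure D3:**
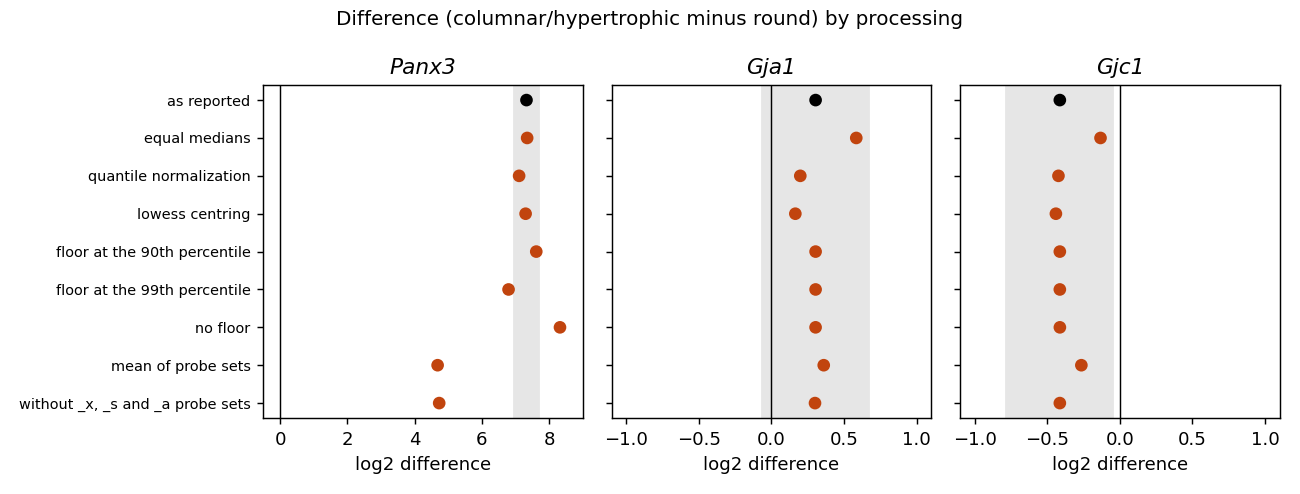
Log2 difference (columnar/hypertrophic minus round, horizontal) of Panx3, Gja1 and Gjc1 as reported (black) and under the 8 alternatives in processing (red), with grey bands of 1 technical SD (0.37) around the reported value; the scale of the Panx3 panel is wider. Panx3 lies between 4.68 and 8.32, Gja1 between 0.16 and 0.58, and Gjc1 between -0.44 and -0.13.

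Gjc1 went the other way by a similarly small step. Its brightest probe set, 1449094_at, read 1676 in round and 1259 in columnar/hypertrophic tissue, a difference of -0.41. The second, 1447787_x_at, had signals of 833 and 768, a difference of -0.12. Of the 10235 genes measured on both arrays, 40.7% had a difference at least as large as the first in either direction. Its neighbour Adam11 on chromosome 11 differed by -0.25, and Higd1b on the other side was under the floor. The opposite signs of Gja1 and Gjc1 were kept under the other scalings. Gja1 and Gjc1 differed by 0.58 and -0.13 with equal medians, 0.20 and -0.42 after quantile normalization, and 0.16 and -0.44 after lowess centring. The other floors and probe-set choices could not reverse a sign, because both genes lay well above the floor and all probe sets of a gene shared its sign. Neither difference exceeded 2-fold under any of the 8 alternatives.

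Promoter sequences were at hand for 5 of the 8 genes, Panx1, Gja1, Gja4, Gjb2 and Gjb6, from RefSeq GRCm38.p6, as windows of 250 bases before to 50 after the start site. Gja1 is shown because it was the 1 of these 5 with a signal above the floor, and Gjb2 is set beside it as a connexin under the floor on both arrays. The Gja1 window is chr10:56377050-56377349 on the plus strand, and the Gjb2 window is chr14:57104653-57104952 on the minus strand. Each is written along the gene, with capitals for matches to the motifs given after them.
Gja1: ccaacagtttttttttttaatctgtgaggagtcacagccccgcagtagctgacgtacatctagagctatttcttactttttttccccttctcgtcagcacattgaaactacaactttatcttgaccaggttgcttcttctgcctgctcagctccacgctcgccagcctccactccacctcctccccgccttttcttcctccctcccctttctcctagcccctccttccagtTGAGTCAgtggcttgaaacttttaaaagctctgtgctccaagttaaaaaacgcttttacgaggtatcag
Gjb2: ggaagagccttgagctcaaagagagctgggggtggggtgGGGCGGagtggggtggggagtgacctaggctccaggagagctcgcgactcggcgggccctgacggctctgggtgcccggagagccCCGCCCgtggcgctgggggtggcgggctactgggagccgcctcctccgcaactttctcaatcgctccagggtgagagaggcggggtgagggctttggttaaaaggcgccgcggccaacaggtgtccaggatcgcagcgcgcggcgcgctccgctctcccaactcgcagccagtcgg

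The windows were searched on both strands for the TATA box (TATAAA), the AP-1 site (TGANTCA), the Sp1 box (GGGCGG) and the RUNX core (TGTGGT), and no matches overlapped in those printed. The Gja1 window held 1 AP-1 match, beginning 19 bases before the start site at position -19, a motif found in 7.81% of the 32851 promoter windows of the table. The Gjb2 window held 2 Sp1 boxes, at -211 and -126, where 35.7% of all windows hold at least 1. Neither window held TATAAA, which 13.6% of all windows do. The Gja4 window held 1 Sp1 box and the Panx1 window 2 RUNX cores (16.8% of windows hold 1 or more), and the Gjb6 window none of the 4 motifs. The number of CpG dinucleotides was 8 in the Gja1 window, 27 in Gjb2, 25 in Panx1, 16 in Gja4 and 6 in Gjb6, against a median of 7. A match describes letters in a window and is not a measured binding site.

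The remaining connexins of the set were at background. Gja4, encoding connexin 37 of the arterial endothelium, had a signal of 70.7 in round and 16.4 in columnar/hypertrophic tissue. Gjb2, encoding connexin 26, had signals of 24.8 and 66.6. Gjb6, encoding connexin 30, had signals of 20.1 and 41.8. Gjb2 and Gjb6 are best known from the inner ear and the epidermis, and they lie side by side on chromosome 14 between Gja3, also under the floor, and Cryl1, which had signals of 2365 and 2182. Gja4 lies on chromosome 4 next to Gjb5, which was under the floor as well.

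Endothelial and keratinocyte markers were measured beside these genes. Of 12 endothelial markers, 10 were under the floor on both arrays, among them Pecam1 and Cdh5. The other two were Egfl7 (206 and 247) and Esam (152 and 65.4). Their signals summed to 844 and 691, with single markers between 1.17 and 247. Of 11 keratinocyte markers 6 were under the floor on both arrays, among them Krt14 and Trp63. The other 5 were measured, the brightest being Krt10 (386 and 308, within 2-fold). Perp (47.6 and 151), Dsp (27.6 and 111) and Krt5 (61.0 and 108) were above the floor on the columnar/hypertrophic array alone. Their summed signal was 822 and 890.2. No marker of either list was given as 0. Among other cell types, 0 of 2 measured osteoclast and 0 of 4 neuron and glia markers passed 2-fold, 1 of 3 skeletal muscle markers (Tnnt3) and 1 of 4 blood and macrophage markers (Lyz2) were higher, and of 5 smooth muscle and pericyte markers 1 was higher and 2 were lower in the columnar/hypertrophic tissue.

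The rest of the connexin family was also at background. Of 9 further connexin genes with a probe set (Gja3, Gja5, Gja10, Gjb1, Gjb5, Gjc3, Gjd2, Gjd4 and Gje1), 9 were under the floor on both arrays. Their signals lay between 5.30 and 61.3 on the round array and between 0.71 and 80.8 on the other, by the brightest probe set of each. With the 8 genes of the set, 14 of 17 family genes were under the floor on both arrays (82.4%), where 35.7% of all named genes were. Of 14 connexins alone, 12 were. Gja1 and Gjc1 were therefore the connexins with a measured signal in either zone, and Panx3 the pannexin.

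Proteins that bind or regulate connexins can act on gap junctions in different directions, so this list has no common function. Of 15 measured gap junction partner genes, 0 exceeded 2-fold toward the columnar/hypertrophic array and 3 did toward the round array, where 4.31% and 6.37% of all measured genes did, with a median difference of -0.25 against -0.05 over all measured genes. Cav1, encoding the caveolin of membrane pits, went from 486 to 65.1, at least 4.84-fold lower. Ccn3, a matricellular protein gene whose product can bind connexin 43, went from 323 to 23.7, at least 3.21-fold lower. Cav2, encoding a second caveolin, went from 278 to 54.9, at least 2.76-fold lower, with its other probe set under the floor on both arrays, but 1.91-fold at the 99th percentile floor. All probe sets of Cav1 and Ccn3 can match several transcripts. Ezr, encoding the membrane-actin linker ezrin, had signals of 2334 and 1509 (-0.63), and Tjp1, encoding the scaffold ZO-1 that binds the tail of connexin 43, had signals of 1814 and 1517 (-0.26). The list median was 0.03 with equal medians, a scaling that moved the median of the genes measured on both arrays from -0.03 to 0.25, and -0.52 without probe sets that can match several transcripts. Fibroblast, perichondrium and tendon markers were lower on the columnar/hypertrophic array too, 7 of 10 measured by at least 2-fold and 0 higher, with summed signals of 85482 and 26902, none listed at 0. Their part in the differences of Cav1, Cav2 and Ccn3 was not tested.

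Receptor genes for the ATP and adenosine that such channels can supply were listed next. Of 19 genes listed, 16 were on the array. Of the 16, 11 were under the floor on both arrays, as were 35.7% of all named genes. Adora3 (8.26 and 46.1), the only adenosine receptor gene read, was among the 11. Adora1, Adora2a and Adora2b were not read, so none of the 5 measured genes is an adenosine receptor gene. Of the 5 measured 0 passed 2-fold by value or bound, where 4.31% of all measured genes were higher by that much and 6.37% lower. P2rx4, the gene of an ATP-gated cation channel, read 472 and 635 (0.43), while further probe sets gave 0.48 and -0.20. P2rx7, the ATP-gated channel often linked to pannexin 1, had signals of 324 and 261 (-0.31). P2ry10 (142 and 22.9) and P2rx6 (122 and 96.0), like P2rx1 (121 and 98.1), fell short of the floor on the columnar/hypertrophic array. Their differences are therefore bounds. With no floor P2ry10 was lower by more than 2-fold (-2.58 on the log2 scale), and P2rx6 was not (-0.35). P2ry2, a receptor gene for ATP and UTP, had signals of 5.19 and 9.14. The list median was -0.28, but 0.06 with the floor at the 99th percentile.

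**Figure D4:**
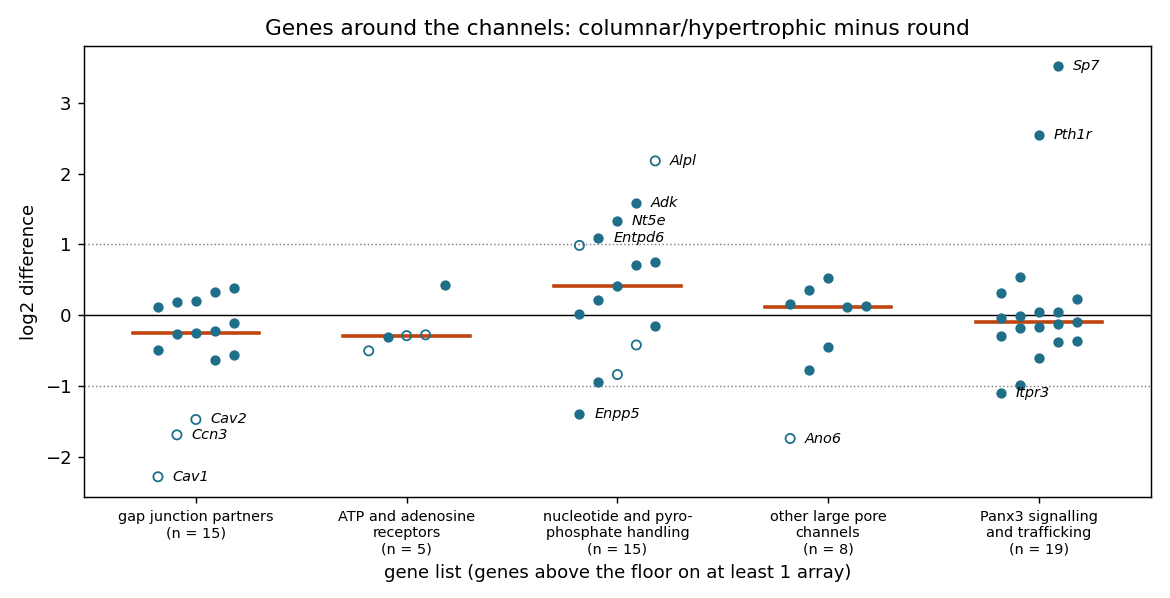
Log2 difference (columnar/hypertrophic minus round, vertical) of the measured genes of 5 lists around the channels, 1 point per gene by its brightest probe set. Bounds are open, medians of the lists are drawn as red bars, and the dotted lines mark 2-fold. Sp7, Pth1r, Alpl, Adk, Nt5e and Entpd6 lie above the upper line, and Cav1, Ccn3, Cav2, Ano6, Enpp5 and Itpr3 under the lower.

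Genes that handle nucleotides, adenosine and pyrophosphate were compared next, including some, such as Slc17a9, whose products act inside the cell. Enpp1, Enpp2, Entpd4 and Phospho1 were on the list but were not among the 20 genes read. Of 15 measured, 4 exceeded 2-fold toward the columnar/hypertrophic array and 1 toward the round array (4.31% and 6.37% of all measured genes), with a median of 0.41, which lay between 0.33 and 0.74 under the alternatives. Alpl, the alkaline phosphatase gene that mineralising cells need to clear pyrophosphate, went from 69.5 to 455, at least 4.53-fold higher. It also stands among the hypertrophic and prehypertrophic markers counted above. Adk, encoding the kinase that traps adenosine as AMP, went from 3275 to 9792, 2.99-fold higher, while further probe sets gave 1.97 and 1.31 on the log2 scale, and 3 more gave bounds of 0.05 to 0.79. Nt5e, encoding the surface enzyme CD73 that turns AMP into adenosine, went from 744 to 1866, 2.51-fold higher, but 0.74 on the log2 scale as the mean of its probe sets, 1 of them under the floor on both arrays. Entpd6, a nucleoside diphosphatase gene, went from 224 to 476, 2.13-fold higher. Enpp5, a membrane protein gene of the nucleotide pyrophosphatase family, went from 617 to 236, 2.61-fold lower, by a single probe set that can match several transcripts. Slc17a9, encoding the carrier that loads ATP into vesicles, had signals of 263 and 432 (0.71), within 2-fold.

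Of 8 measured genes of other large-pore channels, 0 were at least 2-fold higher and 1 was lower (4.31% and 6.37% of all measured genes), Ano6, encoding a phospholipid scramblase, which went from 334 to 10.3, at least 3.33-fold lower, and from 299 to 65.1 by its other probe set. Lrrc8a, the essential subunit of the volume-regulated anion channel, had signals of 1979.5 and 1448 (-0.45). Calhm2, of the calcium homeostasis modulator family, had signals of 234 and 137 (-0.77). Vdac2, a pore of the outer mitochondrial membrane, had signals of 6097 and 8811 (0.53). The list median was 0.12, but -0.12 when probe sets were averaged and -0.45 without probe sets that can match several transcripts.

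Finally, 19 genes of Panx3 signalling and channel trafficking, all above the floor, were compared. Of these 2 were higher, 1 was lower and 16 within 2-fold (4.31% higher and 6.37% lower among all measured genes), with a median of -0.09. Sp7 was 11.4-fold higher, as given above, and Pth1r, encoding the receptor for parathyroid hormone-related peptide, was 5.80-fold higher (1321 to 7666). Both also stand among the hypertrophic and prehypertrophic markers counted above. Itpr3, an IP3 receptor gene of the endoplasmic reticulum, was 2.13-fold lower (1616 to 757), but -0.81 with equal medians. Prkar2b, encoding a regulatory subunit of protein kinase A, had signals of 1886 and 953 (-0.99), with -0.72 and -0.43 by its other probe sets, and passed 2-fold after lowess centring (-1.01). The list median was 0.19 with equal medians, under the scaling shift given above.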

How the data were processed

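Biotin-labelled cRNA from 2 RNA pools was hybridised to 2 Affymetrix GeneChip mouse arrays, 1 per group, so no test was made. The deposited intensities are linear, 1 MAS5 signal for each of 45101 probe sets. MAS5 is named in the submitters' processing notes with no version, while the study's methods name RMA, a log-scale method. The values were read as MAS5 because they are linear and have a mean of 500.0 on both arrays after trimming 2% at each end. MAS5 signals of weakly expressed genes are noisy. A genome build is not given in the sources used here.

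Gene names came from GEO's annotation of the platform: 34945 probe sets named 1 gene, 932 several and 9211 none. Signals under the floor (95th percentile of 87 chemosensory receptor probe sets) were set to the floor, then put on the log2 scale, and each gene was read by its brightest probe set (mean over both arrays). Neighbouring genes and promoters came from RefSeq GRCm38.p6. Named were all members, the other connexins, the 5 genes nearest to Panx3 and Gja1, and chromosomal neighbours. In 5 further lists the genes past 2-fold were named, or the 4 largest differences. A few were chosen after their values were seen: Ifitm5, Ibsp, Col1a2, Perp, Dsp, Krt5, Tjp1, P2rx1, P2ry2, Adora3, Slc17a9, Dusp9, Rhbdl2 and St8sia6. The members and lists were chosen with earlier results of these data known. The procedure was tested on simulated data in which only genes well above the floor were changed, so bounds such as that of Panx3 were not tested. Cell types were checked with 12 marker lists. Alternatives were 3 scalings, floors at the 90th and 99th percentile or none (log2 of signal plus 1), the mean of probe sets, and leaving out probe sets that can match several transcripts. Python 3.11.15, numpy 2.4.6, pandas 2.3.3 and statsmodels 0.14.6 were used.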

Additional observations from a re-analysis of the deposited data

How the results depend on the processing

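With 1 array per group the spread between animals is unknown, and no result could be repeated without a sample. No paired analysis was possible because each group is 1 array. A value was taken as moved when it changed by more than the technical SD of 0.37, and a count when it changed by over 1.5 times. Of 96 values under the alternatives, 84 did not move and 12 moved. Some could hardly move, such as Gja1 and Gjc1 under the other floors. Small list medians could change sign without counting as moved. That of the gap junction partners went from -0.25 to 0.03 with equal medians. That of the other large-pore channels went from 0.12 to -0.12 with the mean of probe sets. Panx3 was at least 2-fold higher under all 8 alternatives. Its bound was 6.79 on the log2 scale with the floor at the 99th percentile, 4.68 as the mean of its probe sets and 4.73 without probe sets that can match several transcripts, and the value was 8.32 with no floor. With no floor, 4 members were at least 2-fold higher and 1 was lower, since signals under the floor then count: Panx1, Gjb2 and Gjb6 joined Panx3, and Gja4 was lower. Over all genes, 1582 were then higher and 2921 lower, against 504 and 745 as reported. With equal medians 943 genes were higher and 414 lower, and with the mean of probe sets 490 were lower. The median of the other large-pore channels was -0.45 without probe sets that can match several transcripts, and its cause was not tested.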
